A study of Mus musculus with 32 samples.

Results

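Keratin-associated protein genes (Krtap) were taken as every row of the arrays whose annotated symbol begins with Krtap, with the highest-mean row standing for a symbol and rows that are identical on every array counted once. The rule itself uses no measured difference, but the family was chosen with earlier results of these data known. The rule found 50 symbols on 50 rows. Krtap3-2 and Krtap3-3 had the same value on each of the 32 arrays, so that 49 genes remained, of 22206 tested rows in all, and the name Krtap3-2 stands for both below. By the number before the hyphen they fall into 24 subfamilies, the largest being Krtap4 with 7 genes, Krtap19 with 6 and Krtap5 with 5. RefSeq lists 6 further mouse Krtap genes without a row under their symbol, Krtap2-4, Krtap4-13, Krtap6-3, Krtap10-10, Krtap28-13 and Krtap29-1, which were not analysed here.

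RNA came from skin of the mouse strain NC/Nga, which is inbred and prone to dermatitis, and whose animals were kept free of specific pathogens. The 4 groups of 8 arrays were ear of mice given HDM, ear of mice given sham, back (dorsal) skin of mice given HDM and back skin of mice given sham. In the series' title HDM stands beside induced dermatitis; what the sham mice were given, and the age, sex and duration of treatment, are not stated in the labels. Mouse numbers 1 to 8 recur at both sites, and whether equal numbers are the same animal is not stated. The p-values measure only the spread between these arrays, and the 5 comparisons share groups.

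Keratin-associated proteins form the matrix between the keratin filaments of the hair shaft, which they crosslink through disulfide bonds. Their genes are switched on late, in cells of the cortex and cuticle that have left the hair bulb and are hardening into hair, and they are off in a resting follicle, so that in mouse back skin their RNA comes and goes with the growth phase of the hair cycle. From wool and human hair the proteins are sorted by composition: Krtap1, 3, 11, 13, 14, 15, 24, 26 and 27 proteins are rich in cysteine (high sulfur), Krtap4, 5, 9 and 17 proteins are richer still (ultra-high sulfur), and Krtap6, 7, 8, 19, 20, 21 and 22 proteins are small and rich in glycine and tyrosine. Subfamilies 10, 12, 16 and 31 are given by number alone.

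All values are log2 levels after RMA, and differences are log2 differences of group means. The background of an array was the median of its 5222 negative control rows. It lay at 4.61 to 4.98 on HDM ear arrays, 5.09 to 5.38 on sham ear arrays, 4.43 to 5.09 on HDM back skin arrays and 4.51 to 5.06 on sham back skin arrays, so the sham ear background was the highest of the 4. The deposited values end at 19.93, and a rescaling of the RMA output is possible, so sizes near that end may be compressed. A gene counts as called where limma, fitted across all tested rows and all 4 groups, gave a Benjamini-Hochberg adjusted p under 0.05. Members of a subfamily have similar sequences and may share probes, so that a value of 1 member can include its relatives.

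Most Krtap genes were above background in back skin at both treatments, and few were in ears. On all 8 arrays of a group, 9 genes in HDM ear, 11 in sham ear, 45 in HDM back skin and 32 in sham back skin were above background. Below background on all 8 were 21 genes in HDM ear, 18 in sham ear, 3 in HDM back skin and 1 in sham back skin. The gene below background on all 32 arrays was Krtap13, of a high-sulfur subfamily whose other member, Krtap13-1, was above background on all 16 back skin arrays. Krtap5-3 and Krtap5-5 were also below background on every HDM back skin array, and were above it in 1 and 2 sham back skin mice. The remaining 46 genes were above background on at least 8 arrays, a set that the back skin levels decide.

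**Figure D1:**
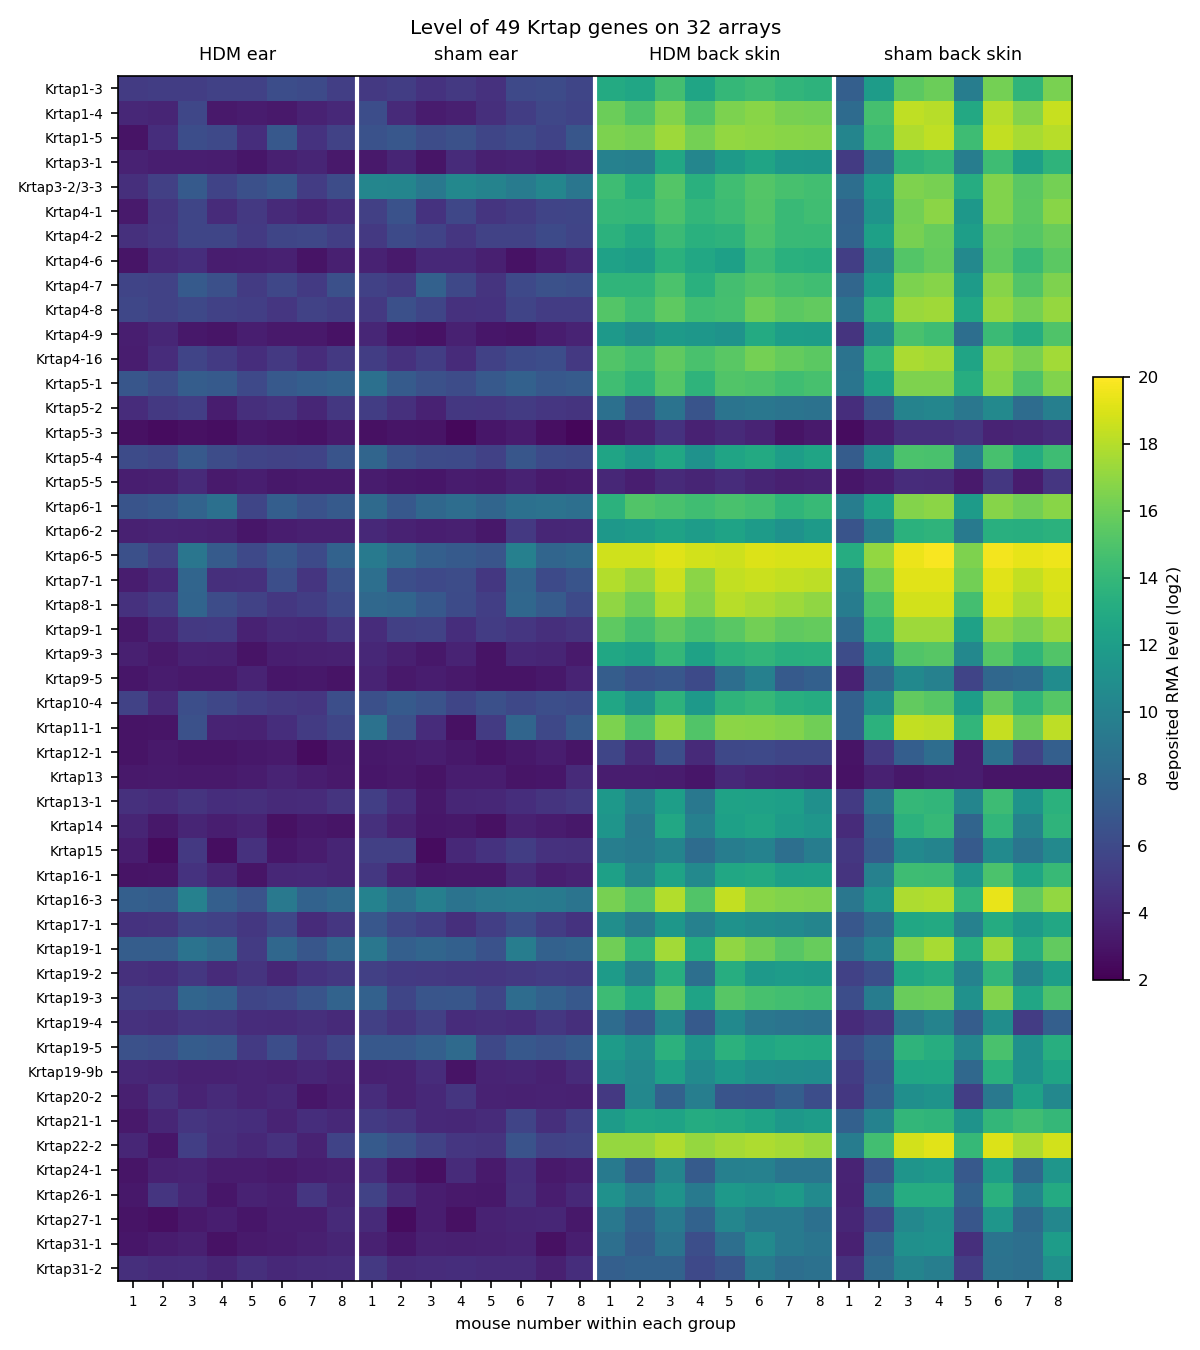
Deposited RMA level (log2, colour) of each of the 49 Krtap genes (rows, by subfamily number) on each of the 32 arrays (columns, by group and mouse number); colours compare arrays within a row, not genes with each other. Back skin columns are bright for all but a few rows, and sham back skin mice 1, 2 and 5 are dark among them. Krtap3-2 is brighter in sham ear than in HDM ear.

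Between sites without HDM, 48 of 49 genes were lower in sham ear than in sham back skin, against 14.1% of all tested rows called lower, with a median difference of -6.96 (range -10.88 to 0.10). For 25 of them every sham ear array was under every sham back skin array, which held for 4.14% of all rows. With HDM, 47 genes were lower in HDM ear than in HDM back skin (11.2% of all rows), with a median of -7.80 (range -13.08 to -0.19), and 46 genes did not overlap (3.7% of all rows). No Krtap gene was called higher in ear in either comparison. Krtap5-3 and Krtap5-5 are among the 48 with sham and Krtap5-3 among the 47 with HDM, but they stood at background at both sites, and Krtap5-3, Krtap5-5 and Krtap13 turned to 0.46, 0.42 and 0.48 in the sham comparison when lower values were raised to the array's background, since the sham ear background was higher. In bulk samples, fewer cells of a type and less RNA per cell cannot be told apart.

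Several glycine-tyrosine genes had large site differences, whose exact sizes depend on ear values near or below background. Of 8 HDM ear arrays, Krtap22-2 was above background on 2 and Krtap7-1 on 3. Krtap22-2 ranged from 3.06 through a median of 4.28 to 5.64 in HDM ear and from 17.15 through 17.38 to 17.86 in HDM back skin, a difference of -13.08 ± 0.86 (SE, adjusted p = 1.89e-13), or -12.47 with values raised to background. In sham samples it ranged from 4.72 through 5.64 to 7.13 in ear and from 9.53 through 18.26 to 19.16 in back skin (-10.64 ± 0.86, adjusted p = 1.90e-11). Both ear groups lay under every back skin array. Krtap7-1 differed by -12.78 ± 0.89 with HDM and by -10.54 ± 0.89 with sham. Krtap6-5, which was above background on all 32 arrays, differed by -12.01 ± 0.67 with HDM and by -9.96 ± 0.67 with sham, and its back skin levels of up to 19.84 lay close to the end of the scale. Krtap8-1 differed by -11.54 ± 0.87 with HDM and by -9.58 ± 0.87 with sham.

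Among high-sulfur genes Krtap1-4 differed by -12.14 ± 0.91 with HDM and by -10.88 ± 0.91 with sham (adjusted p = 4.47e-11), or by -11.11 with HDM and -10.18 with sham when raised to background, above which it was on 1 HDM ear and 4 sham ears. Krtap1-5 differed by -11.57 ± 0.77 with HDM and by -9.83 ± 0.77 with sham, and Krtap11-1 by -11.85 ± 1.06 with HDM and by -9.46 ± 1.06 with sham. Krtap11-1 overlapped between sites in the sham samples, with 8.77 in the highest sham ear and 7.53 in the lowest sham back skin. Of the ultra-high-sulfur genes, Krtap9-1 differed by -11.20 ± 0.81 with HDM and by -10.13 ± 0.81 with sham, Krtap4-16 by -10.74 ± 0.79 with HDM and by -9.94 ± 0.79 with sham, and Krtap4-8 by -9.71 ± 0.75 with HDM and by -9.76 ± 0.75 with sham. All of these differences had adjusted p of 1.96e-08 or less. The Krtap5 genes differed less, with Krtap5-1 at -7.63 ± 0.70 with HDM and -7.37 ± 0.70 with sham.

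A gene that was below background on every ear array has a bound only, with the ear taken at its array background. Krtap4-6 was at least 286-fold lower in HDM ear and at least 193-fold lower in sham ear than in back skin of the same treatment, and Krtap9-3 at least 334-fold with HDM and 183-fold with sham. At the weak end, Krtap12-1 was at least 1.58-fold lower with HDM and 1.88-fold lower with sham, and Krtap9-5 at least 6.26-fold with HDM and 7.58-fold with sham. Krtap12-1 lost its call with HDM where values under background were raised to it (adjusted p = 0.133). The high-sulfur Krtap14 was at least 98.2-fold lower in HDM ear and 42.6-fold lower in sham ear, and Krtap24-1 at least 17.5-fold with HDM and 14.1-fold with sham. Krtap31-2 was at least 7.66-fold lower with HDM and 8.34-fold lower with sham. A few genes were measurable in every ear: 7 were above background on all 16 ear arrays, namely Krtap5-1, Krtap5-4, Krtap6-1, Krtap6-5, Krtap16-3, Krtap19-1 and Krtap19-3, and 18 were below it on all 16.

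The members share position and promoter letters that the rule did not use. In RefSeq 23 lie on chromosome 16, 19 on chromosome 11, 5 on chromosome 7 (the Krtap5 genes) and 2 on chromosome 10 (Krtap10-4 and Krtap12-1). The median site difference was -7.31 with HDM and -6.43 with sham on chromosome 16, and -8.52 with HDM and -8.40 with sham on chromosome 11. It was -3.81 with HDM and -3.88 with sham on chromosome 7, and -4.97 with HDM and -4.94 with sham on chromosome 10. Promoter windows from 250 bases before to 50 after the start were held for 46 of the 50 symbols. The letters TATAAA, the core of the TATA box, were found on the sense strand in 37 of these 46 (80.4%), against 8.32% of 32851 windows of the same length. TTTAT, part of the site preferred by HOXC13, a hair shaft regulator, was found on either strand in 41 (89.1%, against 40.0% of all windows), and TTAAT in 29 (63.0%, against 27.1%). CTTTGA and CTTTGT, forms of the LEF1 and TCF site, were each in 14 (30.4%, against 16% and 18.7%). On the other strand TTTAT reads ATAAA, so that each TATAAA also counts as a TTTAT match, and the Krtap windows are richer in A and T (median 58.7%, against 47.3% of all windows), to which such letters are sensitive. A match is a description of letters and shows no binding.

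The 150 bases before the start are shown for 6 genes that the results below turn on: the 3 neighbouring Krtap3 genes, of which Krtap3-2 with Krtap3-3 was the called row in ear, Krtap6-5 with the smallest SD in HDM back skin, Krtap20-2, which ran against the family in HDM mice 2 and 4, and Krtap13, which was never above background. They are from RefSeq, build GRCm38.p6, read 5′ to 3′ on the gene's strand, with TATAAA in capitals.
Krtap3-1, chr11:99566631-99566780, minus strand: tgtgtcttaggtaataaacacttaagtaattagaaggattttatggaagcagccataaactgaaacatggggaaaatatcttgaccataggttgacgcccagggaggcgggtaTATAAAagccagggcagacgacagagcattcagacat
Krtap3-2, chr11:99556854-99557003, minus strand: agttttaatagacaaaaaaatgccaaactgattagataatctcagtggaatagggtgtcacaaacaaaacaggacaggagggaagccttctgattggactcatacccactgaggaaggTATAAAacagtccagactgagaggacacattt
Krtap3-3, chr11:99550864-99551013, minus strand: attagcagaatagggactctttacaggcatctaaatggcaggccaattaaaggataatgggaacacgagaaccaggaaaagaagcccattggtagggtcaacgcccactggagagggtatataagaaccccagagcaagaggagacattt
Krtap6-5, chr16:89047900-89048049, minus strand: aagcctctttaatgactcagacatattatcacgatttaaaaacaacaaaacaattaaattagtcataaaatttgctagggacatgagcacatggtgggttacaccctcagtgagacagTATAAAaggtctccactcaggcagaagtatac
Krtap20-2, chr16:89205711-89205860, plus strand: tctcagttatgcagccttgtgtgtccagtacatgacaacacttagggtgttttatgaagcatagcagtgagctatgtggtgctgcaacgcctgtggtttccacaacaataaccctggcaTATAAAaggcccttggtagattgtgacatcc
Krtap13, chr16:88751629-88751778, minus strand: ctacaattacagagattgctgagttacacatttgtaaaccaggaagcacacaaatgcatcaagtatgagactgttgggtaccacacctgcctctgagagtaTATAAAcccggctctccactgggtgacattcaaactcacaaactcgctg
TATAAA stood 37 bases before the start in Krtap3-1, 32 in Krtap3-2 and Krtap6-5, 31 in Krtap20-2 and 49 in Krtap13. These exact letters are not in the 150 bases shown for Krtap3-3. That sequence holds tatataag shortly before the start, a similar run that the exact search does not count, so a TATA box is not shown to be absent. A pairwise comparison, which did not match the sequences position by position, counted 85 identical bases of 150 (56.7%) for Krtap3-2 and Krtap3-3. It counted 90 for Krtap3-1 and Krtap3-2. With genes of other subfamilies it counted 80 (Krtap6-5) and 73 (Krtap20-2) for Krtap3-2, so the Krtap3 pairs were little above these in this count. The equal array values of Krtap3-2 and Krtap3-3 do not tell the genes apart and cannot be set against this likeness. Krtap13 has the match although its row was below background on all 32 arrays.

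The spread between mice was much wider in sham than in HDM back skin. The mean level of the 46 genes in HDM back skin was 12.52, 11.78, 13.37, 11.71, 13.14, 13.35, 12.85 and 12.76 in mice 1 to 8. In sham back skin it was 6.71, 10.33, 14.63, 14.75, 10.43, 14.78, 13.00 and 14.53. Thus 3 sham mice (1, 2 and 5) lay under all HDM mice and 4 (3, 4, 6 and 8) above all of them. In ears the same mean lay between 4.33 and 5.51 with HDM and between 4.83 and 5.87 with sham.

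The split ran through the family. Sham mouse 1 was the lowest sham mouse for 46 of 46 genes and below all 8 HDM mice for 46. Mouse 2 was below all HDM mice for 40 genes and mouse 5 for 37. Mice 3, 4, 6 and 8 were above all HDM mice for 42, 42, 41 and 39 genes. Mouse 7 lay between, above all HDM mice for 16 genes and below all of them for 1. The SD between mice, over the 49 genes, had a median of 0.70 in HDM back skin and 3.08 in sham back skin, while over all tested rows it was 0.34 in both. The SD in sham back skin was more than 2 times that in HDM back skin for 44 of 49 genes, against 10.5% of all rows, with a median ratio of 4.03 against 1.02 over all rows. This comparison of spreads is a description without a test. Without sham mice 1 and 2 the count was 28 (8.2% of all rows) and the median ratio 2.30, and without sham mouse 1 alone it was 34 and 2.66.

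Krtap6-5 had the widest ratio of SDs, 12.8. Its levels in HDM back skin were 18.68, 18.67, 19.12, 18.75, 18.64, 19.06, 18.88 and 18.91, against 13.17, 17.06, 19.48, 19.84, 16.52, 19.69, 19.31 and 19.51 in sham back skin. Every HDM mouse lay above sham mice 1, 2 and 5 and below the other 5, although compression near the end of the scale may narrow the upper levels. Krtap22-2 followed with a ratio of 11.5. At the other end were Krtap13, at background, with 0.872, Krtap5-3 with 1.26 and Krtap20-2 with 1.57.

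**Figure D2:**
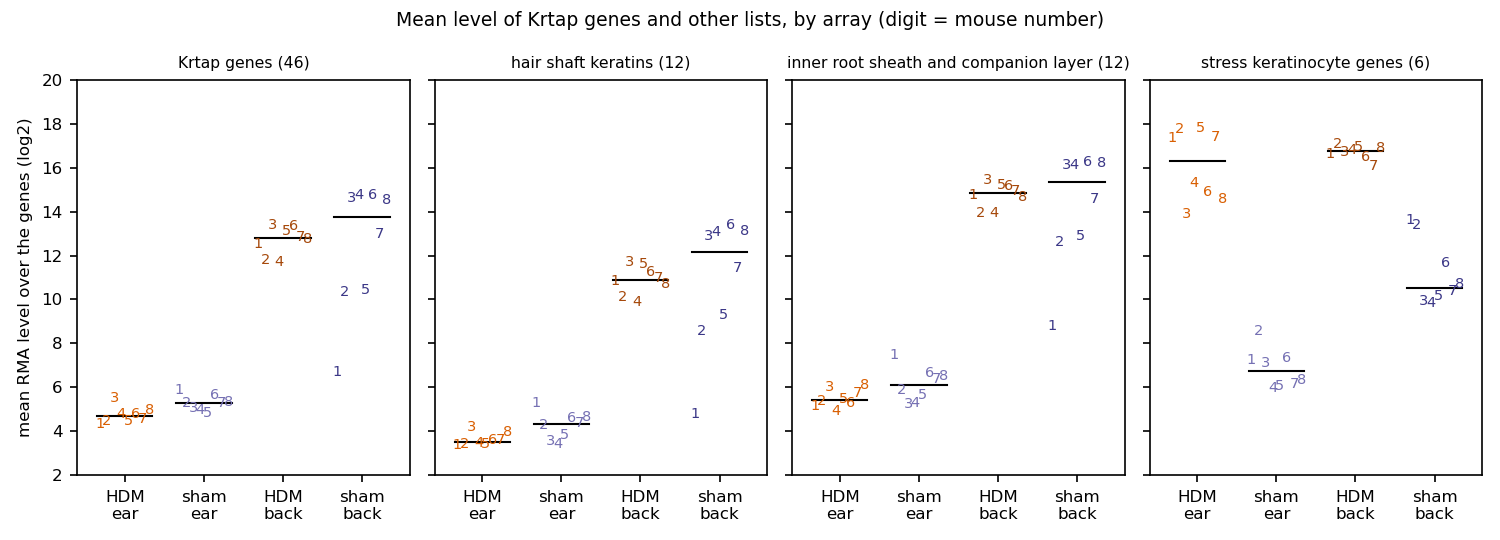
Mean RMA level (log2) over 46 Krtap genes, 12 hair shaft keratins, 12 genes of the inner root sheath and companion layer and 6 stress keratinocyte genes on each array; digits are mouse numbers, lines are group medians. In sham back skin mice 1, 2 and 5 are low in the first 3 panels, and mice 1 and 2, at 13.61 and 13.39, are high in the last.

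With all 8 mice a group, 0 of 49 Krtap genes were called higher and 0 lower with HDM in back skin by limma, against 6.18% and 8.56% of all tested rows. The median difference was 0.19 (range -1.55 to 1.58, against a median of 0.01 over all rows), and 2 genes had an unadjusted p under 0.05. The differences were positive for 32 genes and negative for 16. The sign of the median rested on single mice: it was -0.61 without sham mouse 1, -0.12 without mouse 5, -0.03 without mouse 2 and up to 0.56 without mouse 4. The SEs were 0.56 to 1.06 for all but the 3 genes at background, so that a difference of 1 log2 unit was not detectable. The glycine-tyrosine subfamily Krtap19 was the most positive: its 6 genes ran from 0.73 to 1.58, with Krtap19-1 at 1.58 ± 0.96 (adjusted p = 0.298) and Krtap19-4 at 1.41 ± 0.67 (adjusted p = 0.168). Without sham mouse 6 Krtap19-4 was called higher, at 1.90 (adjusted p = 0.0345). The leading genes of the high-sulfur subfamilies also stayed uncalled, with Krtap1-5 at 0.59 ± 0.77, Krtap14 at 0.83 ± 0.94, Krtap15 at 0.67 ± 0.60, Krtap26-1 at 0.50 ± 0.88 and Krtap24-1 at -0.07 ± 0.78. Krtap6-5 was at 0.77 ± 0.67, Krtap16-3 at 1.31 ± 0.91 and Krtap3-2 at 0.09 ± 0.75. The ultra-high-sulfur Krtap17-1, of a subfamily known from the human hair cuticle, was at -0.47 ± 0.63.

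Leaving out the low sham mice 1 and 2 turned the balance. Then 11 genes were called lower in HDM back skin (7.92% of all rows) and 0 higher, with a median of -0.98 and 47 of 49 differences negative. The 11 were of several classes: Krtap3-1 at -1.65 ± 0.51, Krtap3-2 at -1.28 ± 0.44 and Krtap13-1 at -1.52 ± 0.52 of the high-sulfur genes, Krtap4-2 at -1.30 ± 0.42, Krtap5-2 at -1.37 ± 0.39, Krtap5-3 at -0.61 ± 0.21 and Krtap17-1 at -1.62 ± 0.41 of the ultra-high-sulfur genes, Krtap20-2 at -2.50 ± 0.73 and Krtap21-1 at -1.20 ± 0.36 of the glycine-tyrosine genes, and Krtap10-4 at -1.71 ± 0.46 and Krtap16-1 at -1.71 ± 0.46. Adjusted p ran from 0.00704 for Krtap17-1 to 0.0499 for Krtap3-2. The call of Krtap5-3 was made at background, above which it was on 0 HDM and 1 sham back skin arrays. In the fit with all mice the same 11 had differences between -1.55 and 0.09 and none was called. The 6 Krtap19 genes were at -0.69 to 0.45 without mice 1 and 2, and 0 were called. An earlier look at these data had set these arrays apart, and they are also the lowest in Krtap RNA, so the values show the dependence on them and are no independent test.

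**Figure D3:**
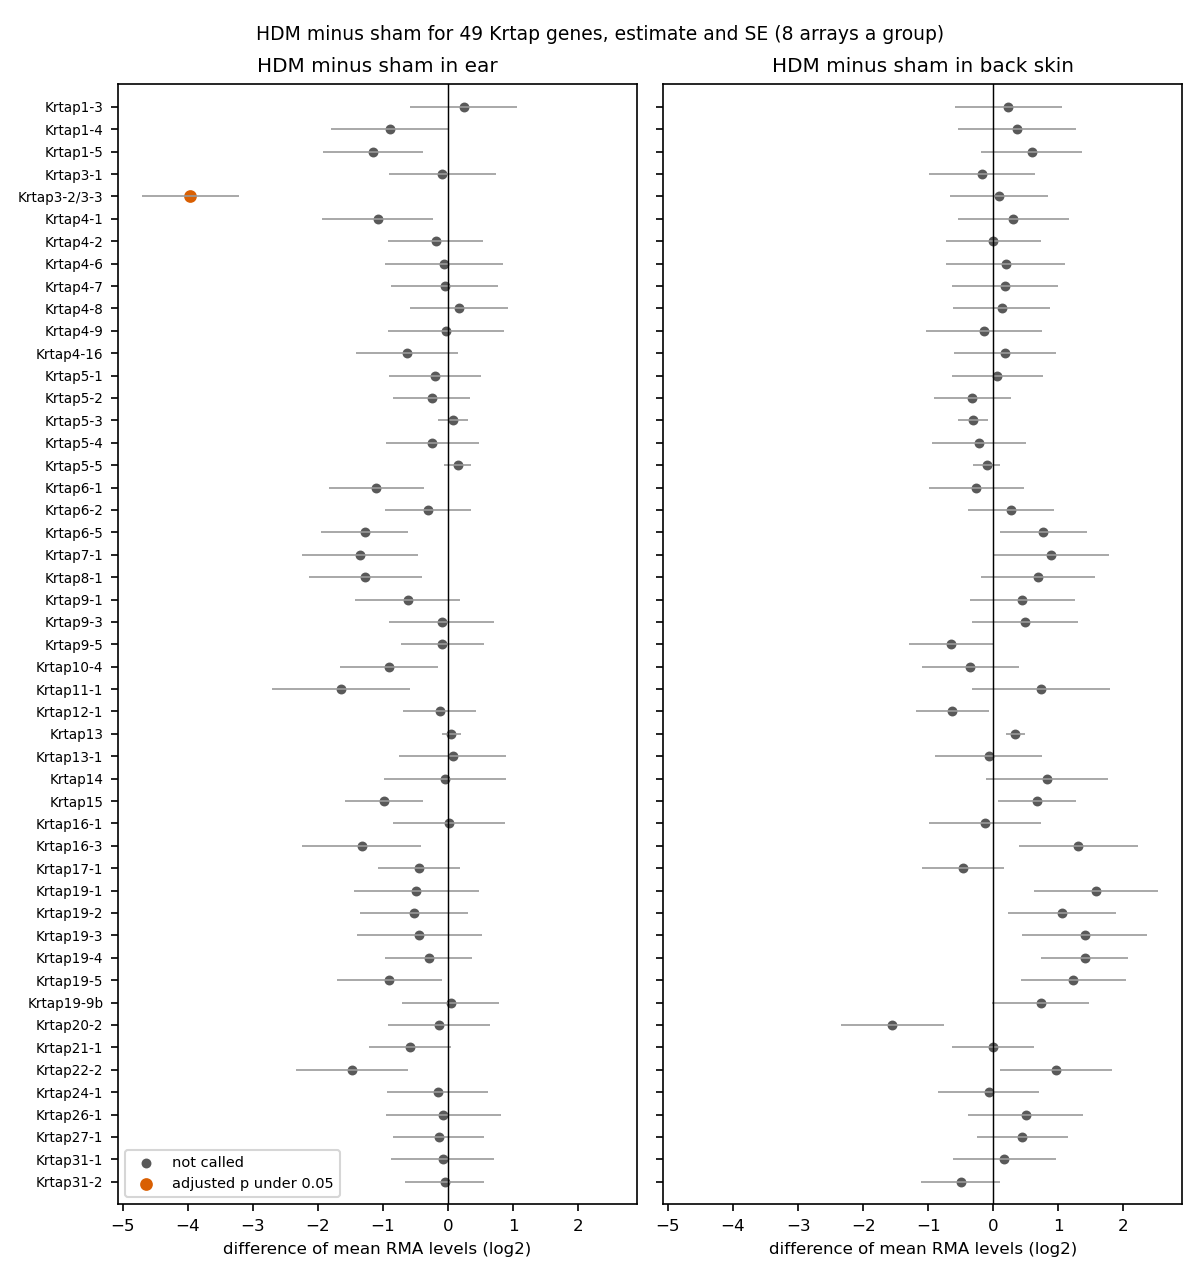
HDM minus sham difference of mean RMA levels (log2) with its SE for each of the 49 Krtap genes in ear (left) and back skin (right), from the fit of all 4 groups. Only Krtap3-2 in ear, at -3.96, is called; the back skin values lie between -1.55 and 1.58.

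Other genes moved with the sham mice. The mean of 12 hair shaft keratins was 4.78, 8.56 and 9.30 in sham back skin mice 1, 2 and 5 and 11.45 to 13.39 in the other 5, and lay between 9.88 and 11.70 in HDM back skin. The mean of 12 genes of the inner root sheath and companion layer was 8.81, 12.62 and 12.91 in sham mice 1, 2 and 5 and 14.58 to 16.28 in the rest. The 6 measured stress keratinocyte genes, which include Krt16, S100a8 and S100a9, had means of 13.61 and 13.39 in sham mice 1 and 2 and of 9.85 to 11.67 in the other 6, mouse 5 among them at 10.15, against 16.07 to 17.10 in HDM back skin, and their part in the Krtap result was not tested. The 8 measured macrophage and neutrophil genes, S100a8 again among them, had means of 9.61 and 9.74 in sham mice 1 and 2 and of 7.79 to 8.36 in the other 6. Of the lists, 0 of 12 hair shaft keratins and 0 of 12 root sheath genes were called between HDM and sham back skin. Hair shaft regulators had 0 of 18 called. Lower were 10 of 11 sebaceous gland, 6 of 9 adipocyte and 4 of 10 follicle stem cell and bulge genes, against 8.56% of all rows. Melanocyte genes had 2 of 10 lower and hair matrix signals 2 of 16. Higher were 6 of 6 stress keratinocyte, 4 of 8 macrophage and neutrophil and 3 of 9 cell division genes, against 6.18%. The basal and suprabasal list had 1 of 10 higher and 4 lower, the dermal papilla list 1 of 11 higher and 2 lower. Without sham mice 1 and 2 the hair shaft keratins had 2 of 12 lower (median -1.25), Krt36 at -2.36 and Krt84 at -2.60. The root sheath list then had 2 of 12 lower (median -0.79), against 7.92% of all rows in that fit.

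Krtap20-2 ran against the family in some back skin mice. This gene, of a glycine-tyrosine subfamily, was at 5.01, 10.38, 7.56, 9.68, 6.65, 6.56, 7.37 and 6.27 in HDM back skin mice 1 to 8, against 4.89, 7.36, 10.98, 11.23, 5.36, 9.27, 12.39 and 10.38 in sham back skin. In HDM back skin its highest mice were 2 and 4, the mice in which 42 of the 46 genes lay below their group median at once and which were the lowest pair for 35. The genes above their median in both mice were 3, counting Krtap20-2, Krtap6-2 (0.02 and 0.07 above) and Krtap21-1 (0.12 and 0.61 above). In sham back skin Krtap20-2 was highest in mouse 7, 2.57 above its median, where 43 of 46 genes were below theirs. In sham mice 1, 2 and 5 it was low and in mice 3, 4 and 8 high, as the family was. The groups overlapped, and the HDM minus sham difference was -1.55 ± 0.79 (adjusted p = 0.205). It became -2.13 (adjusted p = 0.0462) without sham mouse 1. The pattern was noticed in these values and rests on 1 row.

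**Figure D4:**
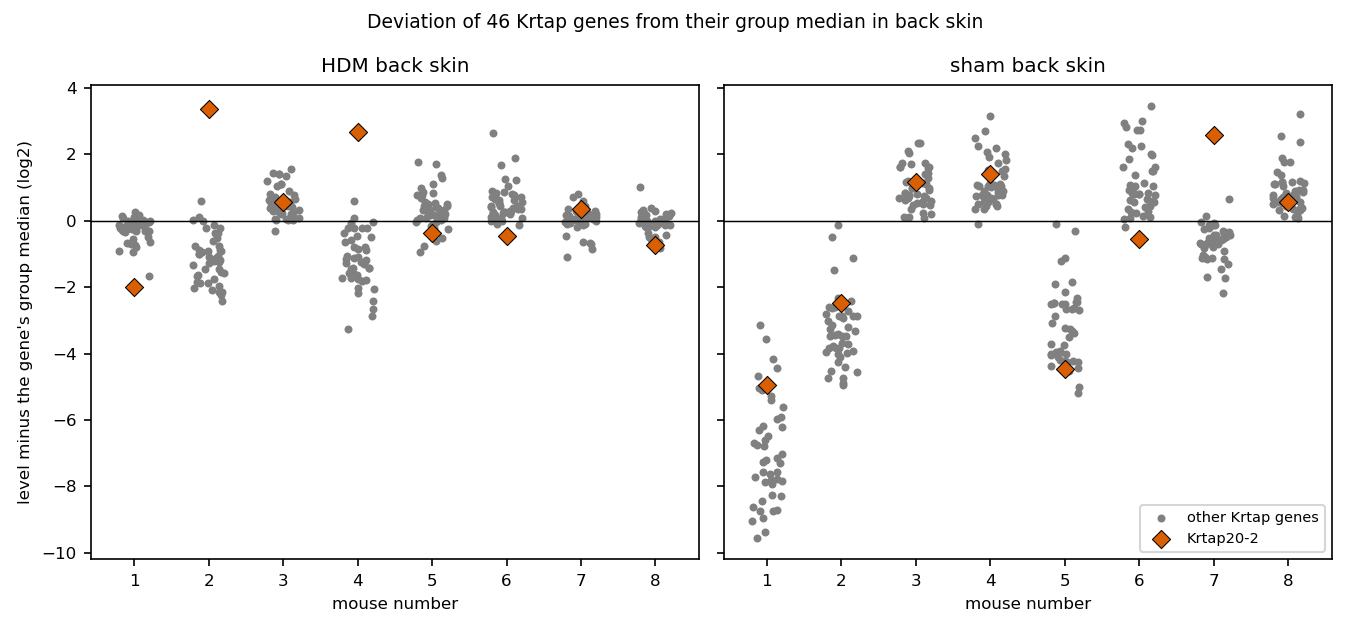
Level of each of 46 Krtap genes minus its own group median (log2) in each HDM (left) and sham (right) back skin mouse; diamonds are Krtap20-2, grey points the other 45 genes. Sham mouse 1 has every gene at least 3.13 below its median, and Krtap20-2 is high in HDM mice 2 and 4 and in sham mouse 7.

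In ear, Krtap3-2, a high-sulfur gene, was the 1 Krtap row of 49 called between HDM and sham, where 15.5% of all rows were called lower, and 0 were called higher. Its levels in HDM ear were 4.41, 5.43, 7.08, 5.65, 6.36, 6.94, 5.18 and 6.17, against 10.28, 10.17, 9.20, 10.39, 10.03, 9.46, 10.23 and 9.10 in sham ear. The groups did not overlap, which held for 2.66% of all rows and for no other Krtap gene. The difference was -3.96 ± 0.75 (adjusted p = 9.72e-05), with 7 of 8 HDM ears and 8 of 8 sham ears above background. In each of 32 fits that left out 1 array it was called, with differences between -4.12 and -3.74.

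In back skin the same row was at 14.42 ± 0.70 with HDM and 14.34 ± 2.92 with sham (SD, n = 8), and was not called. Without sham mice 1 and 2 it was lower there too, at -1.28 ± 0.44 (adjusted p = 0.0499). The HDM effect in ear minus that in back skin was -4.04 ± 1.06 (adjusted p = 0.0119), where 3.37% of all rows were called lower, and -2.67 ± 0.60 (adjusted p = 0.00556) without sham back skin mice 1 and 2. No other Krtap gene was called in this test. The next in size were Krtap16-3 at -2.64 ± 1.29 (adjusted p = 0.205) and Krtap22-2 at -2.43 ± 1.22 (adjusted p = 0.217), while Krtap20-2 was at 1.40 ± 1.12.

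Krtap3-2 was also unlike its neighbour in sham ear. Krtap3-1 lay between 3.07 and 3.88 in HDM ear and between 3.04 and 4.19 in sham ear, below background on all 16 arrays, while in back skin both were above background on all 16. The sham ear minus sham back skin difference of Krtap3-2 was -4.48 ± 0.75, the smallest of the genes that were above background on all 8 sham ear arrays apart from Krtap19-5 at -4.21 ± 0.81. Whether the signal in sham ear comes from Krtap3-2, Krtap3-3 or another RNA that binds these probes cannot be told from the row.

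**Figure D5:**
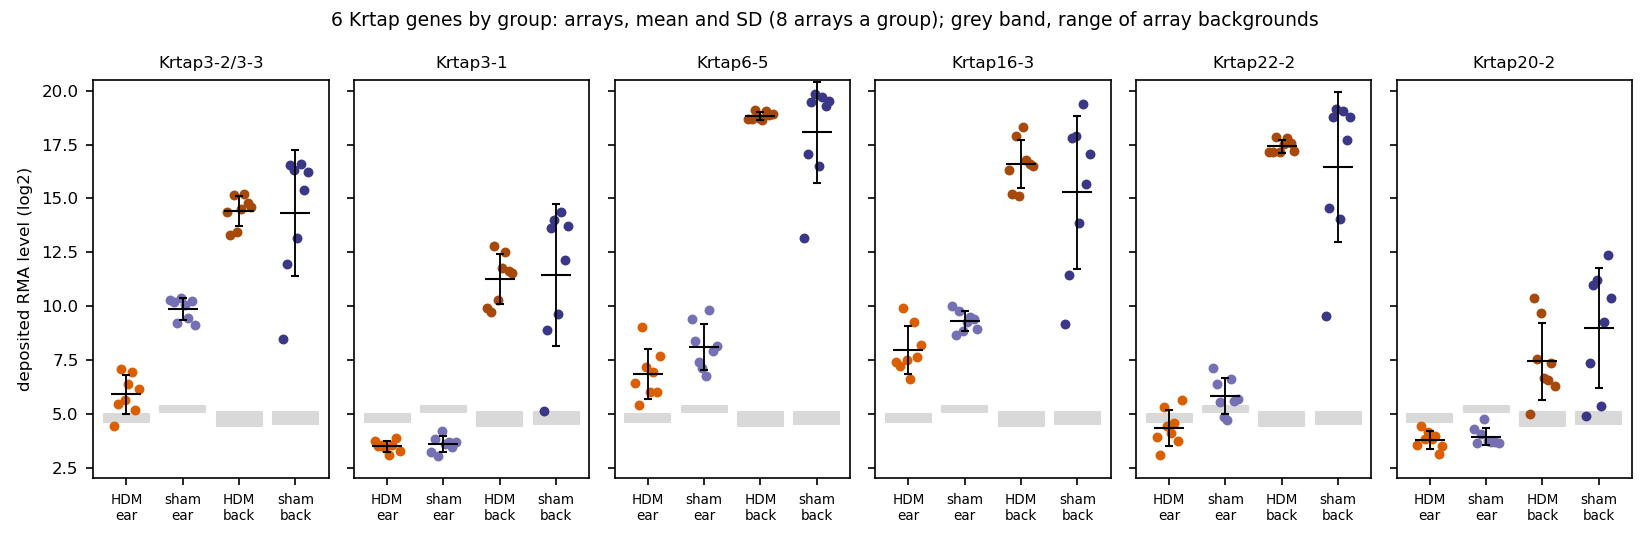
RMA level (log2) of 6 Krtap genes on each array (points) with group mean and SD (n = 8); grey bands are the range of array backgrounds. Krtap3-2 is the 1 gene of these 6 whose HDM and sham ear arrays do not overlap, and Krtap3-1 stays under the bands in ear.

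The other ear differences were mostly small and negative: 40 of the 48 other genes were below 0. The median over all 49 was -0.24 (against -0.02 over all rows). Krtap11-1 was at -1.65 ± 1.06 (adjusted p = 0.266), with levels from 2.96 through 4.05 to 6.49 in HDM ear and from 2.84 through 6.20 to 8.77 in sham ear, which overlapped. Krtap22-2 was at -1.47 ± 0.86 (adjusted p = 0.215), Krtap16-3 at -1.33 ± 0.91, Krtap6-5 at -1.28 ± 0.67, Krtap1-5 at -1.15 ± 0.77 and Krtap10-4 at -0.91 ± 0.75. These SEs come from 1 spread per row over all 4 groups, to which the wide sham back skin contributes. A fit on the 16 ear arrays alone called 8 genes lower (14.6% of all rows) and 0 higher: Krtap3-2 at -3.96 ± 0.34 (adjusted p = 5.14e-07), Krtap22-2 at -1.47 ± 0.38 (0.00679), Krtap19-2 at -0.53 ± 0.15 (0.0105), Krtap16-3 at -1.33 ± 0.38 (0.0131), Krtap4-1 at -1.08 ± 0.32 (0.0144), Krtap10-4 at -0.91 ± 0.28 (0.0175), Krtap6-1 at -1.10 ± 0.34 (0.0181) and Krtap8-1 at -1.27 ± 0.46 (0.0445). Of 49 genes these 8 are near the share of all rows, and Krtap19-2 was above background on 1 HDM and 2 sham ear arrays only.

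Markers of several other structures also differed in these ears. Of the follicle stem cell and bulge list 7 of 10 were lower in HDM ear, of the sebaceous gland list 5 of 11, of the skeletal muscle list 10 of 10, of the adipocyte list 9 of 9 and of the ear cartilage list 7 of 10, against 15.5% of all rows. Higher were 6 of 6 stress keratinocyte genes, 9 of 9 cell division genes and 8 of 8 macrophage and neutrophil genes, against 16.4% of all rows. The dermal papilla list had 2 of 11 higher and 3 lower, the hair matrix signals 1 of 16 higher and 6 lower, the hair shaft regulators 1 of 18 higher and 3 lower, the melanocyte list 1 of 10 lower and the basal and suprabasal list 2 of 10 higher and 4 lower. The mean of the bulge list was 7.94 to 10.30 in HDM ear and 10.26 to 10.83 in sham ear, and that of the sebaceous list 11 to 13.06 in HDM ear and 12.69 to 13.50 in sham ear. Of the hair shaft keratins 9 of 12 in HDM ear and 5 of 12 in sham ear were below background on all 8 arrays. In the fit of all groups 0 were called. The fit on ear alone called 4 of them lower (Krt31, Krt33a, Krt34 and Krt35), against 14.6% of all rows. Of these, Krt34 was below background on all 8 arrays of each ear group. Krt33a was above it on 0 HDM and 1 sham ear arrays, Krt35 on 0 and 2, and Krt31 on 2 and 5. The list's mean was 3.35 to 4.17 in HDM ear and 3.42 to 5.26 in sham ear. Of the root sheath list 1 of 12 was lower, Tchh, which encodes trichohyalin, at -1.82 (adjusted p = 0.0313). Among HDM ears the stress keratinocyte mean was 17.34, 17.78, 13.90, 15.29, 17.80, 14.89, 17.39 and 14.57 in mice 1 to 8. The mean of the 46 Krtap genes in the same ears was 4.33, 4.47, 5.51, 4.80, 4.44, 4.79, 4.55 and 4.98. In 6 of the 8 ears this mean was below the array's background, so its order between mice is read from values at background. Krtap3-2 in these ears was at 4.41, 5.43, 7.08, 5.65, 6.36, 6.94, 5.18 and 6.17. It was highest in mouse 3, which had the lowest stress keratinocyte mean. In mouse 5, which had the highest stress keratinocyte mean, it was above mice 4 and 8. The part of these lists in the fall of Krtap3-2 was not tested.

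The family's profile over the 32 arrays was shared closely by genes of the hair shaft and root sheath. The 10 genes outside the family with the highest Pearson correlation with the mean of the 46 genes were Krt34, Krt72, Krt26, Krt33a, Calhm4, Crnn, Gm11937, Padi3, Dsg4 and Krt86, with r from 0.997 to 0.994. Krt34, Krt33a and Krt86 are hair keratins, Krt26 and Krt72 keratins of the inner root sheath, Padi3 encodes an enzyme that acts on trichohyalin and Dsg4 a desmosomal cadherin of hair. The 32 points share 4 groups and above all the site difference. Within the 8 HDM back skin mice r was between 0.903 and 0.972 and within the 8 sham back skin mice between 0.991 and 0.997. Krt34 was at 2.65 to 4.12 in HDM ear and 3.42 to 4.70 in sham ear, against 12.21 to 14.57 in HDM back skin and 5.43 to 15.55 in sham back skin. Hair shaft keratins and root sheath genes were lower in ear for 12 of 12 in each list at both treatments, against 14.1% of all rows with sham and 11.2% with HDM.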

How the data were processed

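RNA of 32 skin samples, taken as 8 mm punches and amplified from 100 ng with a whole-transcript kit, was hybridised to Mouse Clariom D arrays with 1 label, per the labels' protocols. The deposited log2 values come from RMA, with Transcriptome Analysis Console as the program that the submitters' processing notes name; versions and build are not stated there. The table has 28846 rows, of which 6640 controls were left out of tests and 0 columns went unused. Gene symbols come from the platform annotation and promoters from RefSeq, GRCm38.p6.

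Groups came from the labels for agent and tissue. The linear models of limma 3.58.1 (R 4.3.3) with eBayes and no block were fitted on all 4 groups and 22206 rows, with Benjamini-Hochberg adjustment, calls at an adjusted p under 0.05 and residual SDs shared over groups. Errors after ± are SEs of this fit unless named SD. On simulated data for HDM minus sham in ear, 98 of 100 shifts of 2 log2 units and 100 of 100 shifts of 4 were called, with 11 false calls among 22206 rows. These were rows drawn from the whole table; the Krtap genes had a median pooled SD of 1.68, so this recovery does not describe them. Deviations of equal mouse numbers correlated at -0.135 to 0.14, with at most 3 of 8 pairs over 0.1 in each pair of groups. Such low correlations over all rows cannot show whether equal numbers at both sites are the same animal. Array medians ran from 5.91 to 6.26. The number of arrays limits the precision.

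Named genes were the highest-mean gene of each subfamily, the largest called differences of each comparison (up to 8 in each direction), leading genes of the marker lists, the 10 genes most correlated with the family mean, and genes with an array far from its group; others are named where a count is small, after their values were seen. The genes, lists and tests were chosen with earlier results of these data known.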

Additional observations from a re-analysis of the deposited data

Results flagged for a closer look

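Of 153 combinations of gene and group tested for a single array far from the other 7, 4 met Dixon's limit, where chance gives about 1 in 20. Krtap1-4 in HDM ear was at 5.81 in mouse 3, with the nearest array at 4.04. In sham back skin mouse 1 was far below the rest for Krtap7-1 at 9.9 (nearest 15.93), Krtap8-1 at 9.58 (nearest 14.59) and Krtap11-1 at 7.53 (nearest 13.59). The same mouse was the lowest for all 46 genes above background on at least 8 arrays.

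The HDM effect on Krtap3-2 differed between the sites, by -4.04 ± 1.06 for ear minus back skin (limma, adjusted p = 0.0119). The difference lay between -4.37 and -3.21 when each array was left out in turn, with a largest adjusted p of 0.0224.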

How the results depend on the processing

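Of the recomputed values 625 were counted as the same, 11 counts moved, 8 values reversed, 12 gained a call and 4 lost one. The 625 include the Krtap median in back skin without sham mice 1 and 2, at -0.98 against 0.19 as reported. That value changed sign, so the tally understates how far the back skin result depends on these mice. For HDM against sham back skin, equal array medians gave 1 gene called higher (Krtap13, 0.46), and a median of 0.13 over all rows (0.01 as deposited) and 0.32 over the Krtap genes (0.19 as deposited); all-row calls then split 2433 higher and 1392 lower, against 1372 higher and 1901 lower as deposited. Leaving out each array in turn gave 0 to 1 higher and 0 to 1 lower and a Krtap median of -0.61 to 0.56, and leaving out sham mice 1 and 2 gave 11 lower and turned Krtap3-2 to -1.28, Krtap6-5 to -0.22, Krtap16-3 to -0.35 and Krtap19-1 to -0.04. With 1 array left out Krtap3-2 lay between -0.75 and 0.41.

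In ear, 1 gene was called lower as reported, 3 without sham back skin mice 1 and 2, 8 in the fit on ear alone, and 1 to 3 with 1 array left out. Raising values to background gave 4 in ear and 4 for the difference of effects; it moved the median of all rows in ear to -0.38, the value of the 3 added genes (Krtap5-3, Krtap5-5 and Krtap13), since the sham ear background was higher. The same step gave 3 genes higher in sham ear than in sham back skin, with Krtap5-3 at 0.46 and Krtap5-5 at 0.42, and Krtap13, with 1 array left out, lay between -0.02 and 0.17. The count of genes with an SD ratio over 2 was 44, 28 without sham mice 1 and 2, and 34 to 46 with 1 array left out; these ratios were added after seeing the data.

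Mouse number was also fitted as a replicate block, fixed or random (consensus correlation 0.015). Counts stayed at 0 in back skin, 1 in ear, and 48 and 47 between sites. Whether equal numbers are the same animal is not stated. No Krtap symbol had more than 1 row, so averaging rows could not differ, and composition classes were not computed without protein sequences. Krtap13, Krtap5-3 and Krtap5-5 lay at background, where differences follow the background of the arrays. Relatives may share probes, and levels near 19.93 may be compressed.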
